A study of Drosophila melanogaster with 18 samples.

Results

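The effect of adding br RNAi to E93 RNAi was compared between 24 h and 44 h after puparium formation in dissected pupal wings of Drosophila melanogaster. The comparison used 12 of the study's 18 poly(A) RNA-seq libraries, 3 in each of 4 groups. E93RNAi+brRNAi wings carried rn-Gal4, UAS-brRNAi and UAS-E93RNAi, and E93RNAi wings carried rn-Gal4 and UAS-E93RNAi, each at 24 h and at 44 h. The other 6 libraries, 3 at each time, came from wings with rn-Gal4 and no RNAi (control). They were not part of the contrast and are given for the normal time course. Every sample pooled at least 40 wings. The driver follows the rotund gene, which is active in a part of the wing, so cells outside its domain were sampled as well, and no wings with br RNAi alone were analysed here. For each gene, the log2 fold change of E93RNAi+brRNAi over E93RNAi at 24 h was subtracted from that at 44 h. A positive difference (interaction) therefore means that the gene stood higher, relative to E93RNAi wings, at 44 h than at 24 h. Of 9672 genes tested, 3240 (33.5%) passed an adjusted p of 0.05 in edgeR's quasi-likelihood test with Benjamini-Hochberg adjustment, 1690 (17.5%) with a positive and 1550 (16%) with a negative difference.

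Pulses of the steroid ecdysone time the development of the pupal wing, an epithelium that stops dividing, forms veins, bristles and hairs, and then lays down adult cuticle. The hormone binds the receptor EcR, which starts a cascade of factors that switch one another on and off. Eip93F encodes E93, a factor needed for adult differentiation, and br encodes the Broad factors, best known for specifying the pupal stage. The study asked whether E93 acts in the pupal wing mainly by holding br down. The interaction asks whether adding br RNAi changed the same genes in the same direction at the earlier and the later time.

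Levels are CPM, the counts scaled to the library total with TMM factors. Log2 values are followed by the SE, and mean CPM values by the SD over 3 libraries. The SE is the size of the log2 value divided by the square root of the test's F statistic. It is approximate where counts are few. Many genes below were named only if the libraries of the genotypes did not overlap where the effect passed. For them the lack of overlap is no added support. Library totals ran from 17627937 to 22940404 counts. A pair of libraries stood apart from their groups. In E93RNAi 24 h replicate 3 ribosomal protein genes took 8.334% of the counts, and in its partners 10.54% and 10.93%. The chi-square per degree of freedom between this library and its partners was 17.57 and 25.47, against 3.969 between the partners. For E93RNAi+brRNAi 44 h replicate 3 the values were 22.76 and 24.45, against 5.42. With this pair left out, 3216 genes had an interaction. Nothing in the labels says that libraries of a group came from separate cultures, so p-values measure the spread among them, which can be technical.

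The second RNAi target, br, is read here from the row with the identifier FBgn0000210, taken as its former FlyBase identifier because the gene annotation used lists br under another one. It was lower in E93RNAi+brRNAi wings at both times. At 24 h br was at 22.5, 16.6 and 14.7 CPM in E93RNAi+brRNAi wings, against 96.6, 83.6 and 105 CPM in E93RNAi wings. Levels at 44 h were 8.82, 7.62 and 6.46 CPM, against 49.7, 47.9 and 53.01 CPM. The genotypes were apart at both times, and the log2 fold changes of -2.40 ± 0.13 and -2.72 ± 0.15 were not shown to differ (-0.32 ± 0.21, adjusted p = 0.247). The driver gene rn was also lower at both times (-0.28 ± 0.05 and -0.44 ± 0.06). Its interaction did not pass (-0.16 ± 0.08, adjusted p = 0.12), but did without E93RNAi 24 h replicate 3 (-0.1915) and without both outlying libraries (-0.1814).

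Eip93F, targeted in both genotypes, reversed. It was at 2359, 2414 and 2334 CPM in E93RNAi+brRNAi wings at 24 h, against 2043, 1886 and 2269.9 CPM in E93RNAi wings. The later libraries had 922, 868 and 811 CPM, against 1173, 1182 and 1113 CPM. No library of one genotype reached into the other at either time, and the order turned over. The log2 fold change was 0.20 ± 0.06 at 24 h and -0.41 ± 0.06 at 44 h (interaction -0.61 ± 0.09, adjusted p = 1.27e-05). Control wings had 2077 ± 51.7 CPM at 24 h and 1285 ± 47.95 CPM at 44 h, above those of both RNAi genotypes at 44 h. At 24 h the control libraries lay within the range of the E93RNAi libraries, and all E93RNAi+brRNAi libraries were above all control libraries, so a lower transcript level of this RNAi target was not seen at that time. Without replicate 2 of E93RNAi or of E93RNAi+brRNAi at 24 h the interaction passed and the rise at 24 h did not.

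The genotypes differed as well in Dcr-2, whose product makes small interfering RNAs. It was at 146, 147 and 128 CPM in E93RNAi+brRNAi wings at 24 h, against 5316, 5293 and 6039 CPM in E93RNAi wings. In the 44 h libraries it was at 52.5, 60.6 and 43.99 CPM, against 2619, 1936 and 2049.8 CPM. Control wings, at 237 ± 22.1 and 63.04 ± 4.51 CPM, were closer to the E93RNAi+brRNAi wings. The log2 fold changes of -5.30 ± 0.13 and -5.39 ± 0.13 had no interaction past the threshold (-0.09 ± 0.16, adjusted p = 0.701). The labels name no difference in Dcr-2. Effects of br RNAi and of whatever else the genotypes differed in cannot be told apart.

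At 24 h 3989 genes (41.2%) differed between E93RNAi+brRNAi and E93RNAi wings, 1952 (20.2%) higher and 2037 (21.1%) lower. At 44 h 4717 genes (48.8%) did, 2408 (24.9%) higher and 2309 (23.9%) lower. A log2 fold change of 1 or more in size was reached by 576 (5.96%) and 1047 (10.8%) of them, and an interaction of that size by 791 genes (8.18%). Of the 2290 genes that passed at both times, 1747 kept their direction and 543 changed it. All 543 had an interaction, which opposite effects at both times make nearly certain. They made up 16.8% of the genes with an interaction. Among these reversed genes 331 were lower at 24 h and higher at 44 h, and 212 the opposite. In 68 of them (53 and 15) the size of the effect was 1 or more at each time.

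Most interaction genes passed at one of the times: 1342 (41.4%) at 44 h and not at 24 h, and 789 (24.4%) at 24 h and not at 44 h. A further 171 kept their direction with the larger effect at 24 h, 277 kept it with the larger effect at 44 h, and 118 passed at neither time. Just inside the threshold was CtsK1 (0.16, adjusted p = 0.04999) and just outside CG34174 (-0.51, adjusted p = 0.05001). In the control libraries, which the contrast does not use, 53.2% of the 1690 positive genes rose between 24 h and 44 h and 30.2% fell, and of the 1550 negative genes 35.9% rose and 46.8% fell. Over all genes tested, 37.1% rose and 38.1% fell. The order was the opposite for the 257 negative genes with an interaction of 1 or more in size, of which 49.4% rose and 31.5% fell, while of the 534 positive genes of that size 50.6% rose and 27.2% fell.

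**Figure D1:**
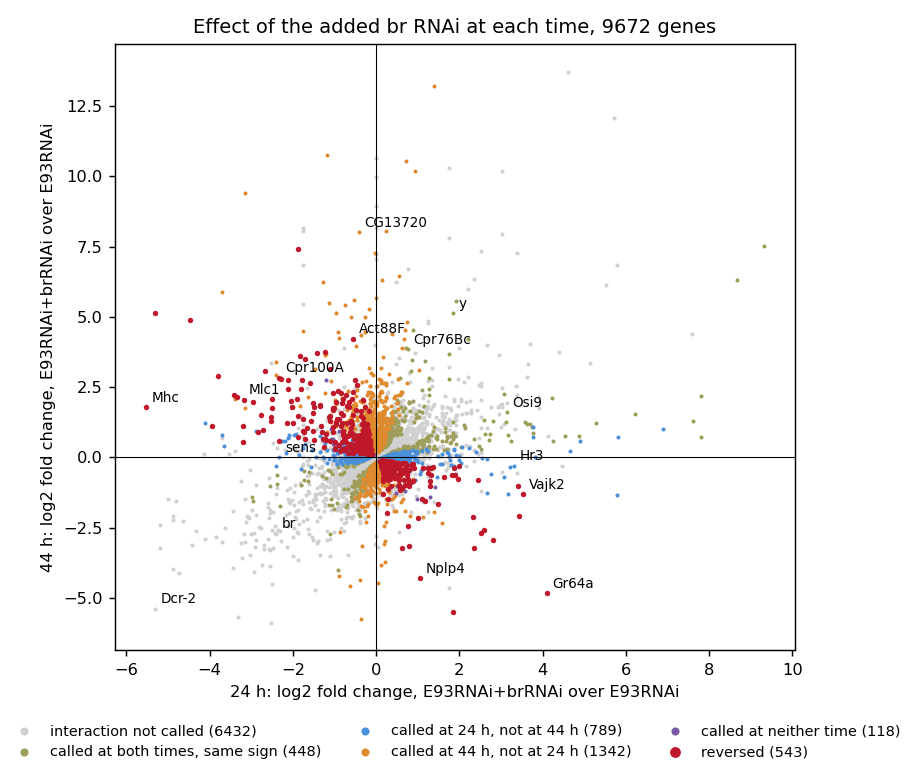
Log2 fold change of E93RNAi+brRNAi over E93RNAi at 24 h (horizontal axis) and at 44 h (vertical axis), each point 1 of the 9672 genes tested, coloured by class. The 543 reversed genes lie in the upper left (331) and the lower right (212), with Mhc at the far left of the first set.

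Genes of the contractile apparatus were among the strongest reversals. Mhc, the muscle myosin heavy chain gene (FBgn0264695, chromosome 2L, 16766566 to 16788766, BDGP6), was at 0.701, 0.9001 and 0.625 CPM in E93RNAi+brRNAi wings at 24 h, against 32.8, 33.1 and 36.5 CPM in E93RNAi wings. Levels turned over by 44 h, with 68.6, 70.9 and 90.3 CPM in E93RNAi+brRNAi wings, against 28.3, 19.4 and 18.96 CPM in E93RNAi wings. No libraries overlapped at either time. The log2 fold change was -5.52 ± 0.27 at 24 h and 1.79 ± 0.15 at 44 h (interaction 7.31 ± 0.31, adjusted p = 7.48e-13). Control wings had 1.05 ± 0.737 CPM at 24 h and 58.3 ± 9.07 CPM at 44 h. The late onset of Mhc in control wings was thus also seen in E93RNAi+brRNAi wings, while E93RNAi wings were already high at 24 h and not higher at 44 h.

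Mlc1, a myosin light chain gene, was at 0.618, 0.853 and 0.893 CPM in E93RNAi+brRNAi wings at 24 h, against 7.22, 7.87 and 6.39 CPM in E93RNAi wings. The 44 h libraries had 18.4, 17.6 and 26.7 CPM, against 6.20, 4.68 and 4.26 CPM (interaction 5.24 ± 0.30, adjusted p = 5.94e-11). Again the libraries of the genotypes did not overlap. The troponin T gene up, the tropomyosin gene Tm2 and the muscle LIM protein gene Mlp60A had the same order, with interactions of 4.25 ± 0.28, 4.31 ± 0.31 and 5.74 ± 0.39. So did Mlc2 (2.76 ± 0.21) and bt, the gene of a giant sarcomere kinase (2.38 ± 0.16). The junctophilin gene jp, whose product ties the plasma membrane to internal calcium stores, averaged 2.404 ± 0.3401 CPM in E93RNAi+brRNAi wings and 9.05 ± 0.746 CPM in E93RNAi wings at 24 h. Its 44 h means were 9.802 ± 1.46 CPM and 2.33 ± 0.592 CPM in the same order.

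Act88F, the flight muscle actin gene, had a small gap at 24 h and a wide one at 44 h. It was at 20.7, 18.2 and 21.5 CPM in E93RNAi+brRNAi wings at 24 h, against 30.9, 30.3 and 27.2 CPM in E93RNAi wings. By 44 h E93RNAi+brRNAi libraries held 45.2, 42.04 and 69.4 CPM, against 3.16, 2.43 and 2.88 CPM in E93RNAi wings (interaction 4.76 ± 0.25, adjusted p = 1.74e-11). The E93RNAi libraries at 44 h were the lowest of all 18, and control wings averaged 57.9 ± 8.598 CPM at that time.

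Of 25 muscle markers tested, 17 had a positive and 3 a negative interaction, against 17.5% and 16% of all genes, and the median was 1.90, against -0.03 over all genes. Reversal accounted for 12 of the positive calls and for 1 negative call, Mp20, which stayed below 1 CPM in every library and whose effect at 44 h did not pass without E93RNAi 44 h replicate 1. Over all 9672 genes tested, 331 reversed in the positive and 212 in the negative sense. At 24 h 14 members were lower and 2 higher (21.1% and 20.2% of all genes). At 44 h 18 were higher and 2 lower (24.9% and 23.9%). Without both outlying libraries the interaction counts were 18 and 3. Summed over the list, the level at 24 h was 1004 to 1053 CPM in E93RNAi+brRNAi wings and 1144 to 1244 CPM in E93RNAi wings. The sums for 44 h were 1933 to 2175 CPM and 1537 to 1634 CPM. None of the markers was at 0 in all 12 libraries, and fln, Mp20, TpnC47D, twi and Zasp66 averaged under 1 CPM. Much of the muscle of a pupa lies in the thorax, next to the wing. In bulk samples fewer cells of a type and less RNA per cell cannot be told apart, and whether muscle was taken along in the dissection was not tested.

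**Figure D2:**
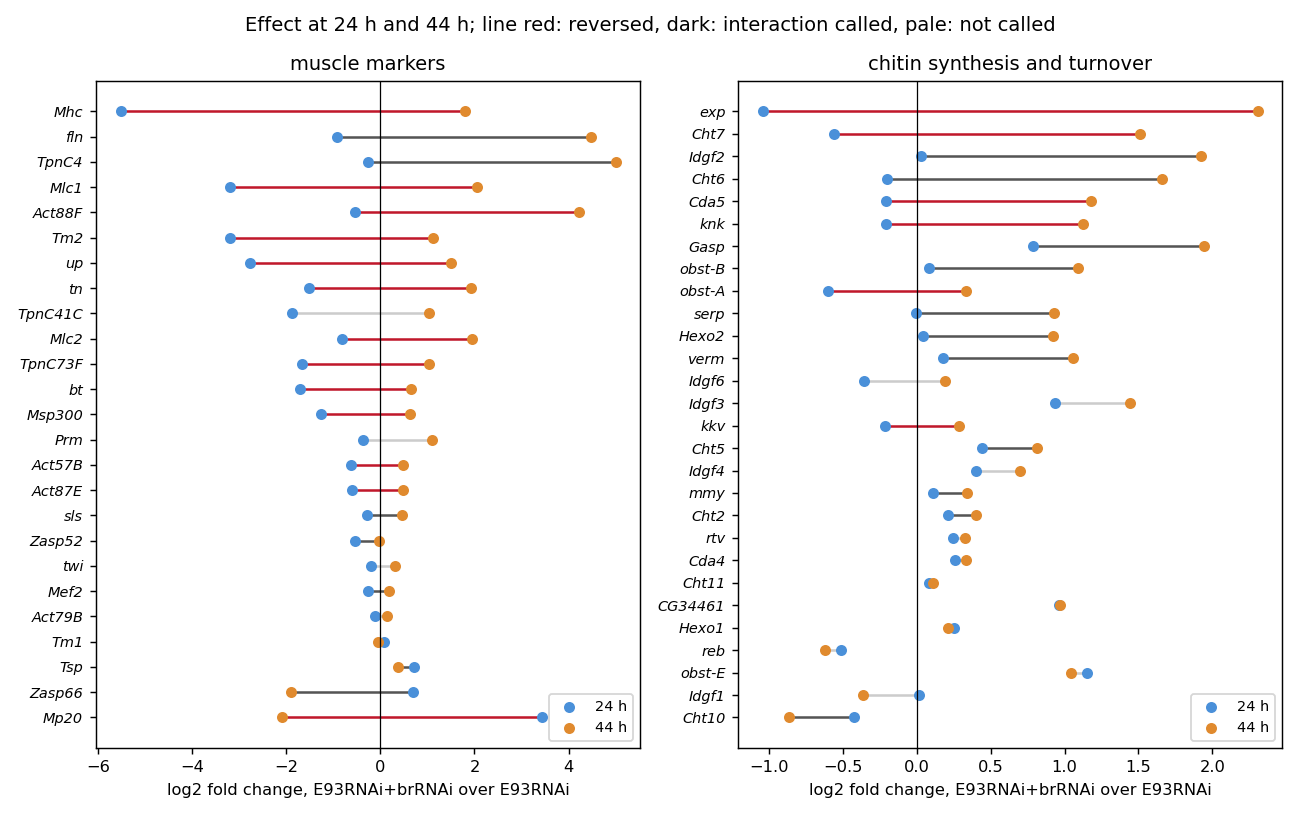
Log2 fold change of E93RNAi+brRNAi over E93RNAi at 24 h and at 44 h for the members tested of the muscle markers (25) and of the chitin genes (28), each line joining the values of 1 gene. Mhc is at -5.52 at 24 h and at 1.79 at 44 h, and most chitin genes lie further right at 44 h.

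Gcat, a glycine C-acetyltransferase gene, was at 0.618, 0.805 and 0.357 CPM in E93RNAi+brRNAi wings at 24 h, against 6.397, 6.89 and 5.698 CPM in E93RNAi wings. Both genotypes had more at 44 h, 132, 149 and 170.4 CPM, against 30.8, 28.6 and 36.99 CPM (interaction 5.64 ± 0.26, adjusted p = 1.70e-12). The order of the genotypes changed with no overlap, as the rule that named the gene required. Ldh, the lactate dehydrogenase gene, averaged 4.76 ± 0.424 CPM in E93RNAi+brRNAi wings and 11.1 ± 1.32 CPM in E93RNAi wings at 24 h. Means at 44 h were 85.4 ± 16.1 CPM and 6.32 ± 0.259 CPM, with control at 4.03 ± 0.0383 CPM (interaction 4.97 ± 0.22). CG8620 was at 0.0824, 0.0947 and 0.223 CPM in E93RNAi+brRNAi wings at 24 h, against 0.457, 0.556 and 0.505 CPM. It was at 6.104, 8.72 and 6.57 CPM at 44 h, against 2 counts over the 3 E93RNAi libraries.

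Chitin, the polysaccharide of cuticle, is made by the synthase kkv and then ordered and trimmed by secreted proteins. The gene exp, needed to deposit chitin, was at 18.4, 15.9 and 13.6 CPM in E93RNAi+brRNAi wings at 24 h, against 32.2, 29.3 and 37.2 CPM in E93RNAi wings. It reached 133, 136 and 147 CPM in E93RNAi+brRNAi wings at 44 h, against 29.6, 25.2 and 29.6 CPM in E93RNAi wings. E93RNAi+brRNAi libraries were thus all lower at 24 h and all higher at 44 h (-1.04 ± 0.10 and 2.31 ± 0.09, interaction 3.35 ± 0.13, adjusted p = 4.23e-13). Control wings, at 19.2 ± 0.683 and 13.1 ± 0.809 CPM, had no such rise.

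Cht7, of the chitinase family, averaged 91.8 ± 5.55 CPM in E93RNAi+brRNAi wings and 135 ± 2.97 CPM in E93RNAi wings at 24 h. At 44 h these means were 1119.7 ± 101 CPM and 394 ± 56.5 CPM (interaction 2.07 ± 0.14). The chitin organiser knk reversed with a small effect at 24 h (-0.21 ± 0.06 and 1.12 ± 0.06), and so did kkv (-0.21 ± 0.06 and 0.29 ± 0.06). Without E93RNAi 24 h replicate 3 the effect on kkv at 24 h did not pass. For Cht6 that effect did not pass either (-0.20 ± 0.10), and at 44 h the gene averaged 1087 ± 101 CPM in E93RNAi+brRNAi wings and 345 ± 35.4 CPM in E93RNAi wings. The chitin deacetylase genes verm and serp passed at 44 h and not at 24 h (interactions 0.88 ± 0.13 and 0.93 ± 0.18), although verm passed at both times without E93RNAi+brRNAi 44 h replicate 3. Gasp, a chitin-binding protein gene, was higher at both times and by more at 44 h (0.78 ± 0.09 and 1.94 ± 0.08).

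Of 28 chitin genes tested, 16 had a positive and 1 a negative interaction, against 17.5% and 16% of all genes, and 6 of the positive ones reversed. Their median interaction was 0.51, against -0.03 over all genes. Members split evenly at 24 h, 8 higher and 8 lower (20.2% and 21.1% of all genes), while at 44 h 23 were higher and 2 lower (24.9% and 23.9%). The single negative member was Cht10, lower at both times and by more at 44 h (-0.42 ± 0.08 and -0.87 ± 0.08). With both outlying libraries left out, 15 and 1 passed.

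Cuticle protein genes went both ways. Cpr100A (FBgn0039805, chromosome 3R, 30867521 to 30869184, BDGP6) was at 70.2, 48.7 and 46.99 CPM in E93RNAi+brRNAi wings at 24 h, against 297, 245 and 289.9 CPM in E93RNAi wings. It was at 52.7, 50.8 and 66.1 CPM at 44 h, against 7.42, 8.19 and 8.24 CPM. E93RNAi+brRNAi wings held about the same level at both times, and E93RNAi wings were far higher at 24 h and far lower at 44 h (interaction 5.15 ± 0.21, adjusted p = 4.23e-13). Control wings had 150.4 ± 17.8 CPM at 24 h and 5.93 ± 0.6501 CPM at 44 h. The Tweedle gene TwdlT, of another cuticle family, reversed in the same sense (-2.33 ± 0.20 and 0.58 ± 0.14).

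Vajk2 and Vajk3, cuticle protein genes near each other on chromosome 2L, ran the other way. Vajk2 (13932559 to 13934692) was at 15.003, 11.7 and 14.2 CPM in E93RNAi+brRNAi wings at 24 h, against 1.33, 0.813 and 1.42 CPM in E93RNAi wings. Its 44 h libraries had 4.69, 4.62 and 7.13 CPM, against 14.2, 13.5 and 13.3 CPM (interaction -4.84 ± 0.25, adjusted p = 1.11e-11). The level of E93RNAi+brRNAi wings at 24 h was thus about that of E93RNAi wings at 44 h. Vajk3 (13944756 to 13947476) averaged 18.7 ± 2.32 CPM in E93RNAi+brRNAi wings and 1.75 ± 0.153 CPM in E93RNAi wings at 24 h, with 44 h means of 7.24 ± 0.605 CPM and 14.8 ± 0.832 CPM. Cpr72Eb reversed in this sense too (0.27 ± 0.08 and -1.99 ± 0.12), but not without E93RNAi+brRNAi 24 h replicate 1. Control wings averaged 212 ± 5.96 CPM of Cpr72Eb at 24 h, and 4.82 ± 0.697 CPM by 44 h.

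Of 44 Cpr genes tested, 11 had a positive and 14 a negative interaction, with 3 and 6 reversed. Of 22 genes of other cuticle families 6 were positive and 6 negative, with 1 and 4 reversed. Over all 9672 genes tested, 17.5% were positive and 16% negative, and 331 and 212 genes reversed in these senses. Cpr76Bc kept its direction and was at 36.7, 46.8 and 47.4 CPM in E93RNAi+brRNAi wings at 24 h, against 27.6, 22.8 and 26.6 CPM in E93RNAi wings. It was at 1573, 1586 and 2249 CPM at 44 h, against 143, 113 and 119.95 CPM. All E93RNAi+brRNAi libraries were higher at both times, by a log2 fold change of 0.76 ± 0.14 at 24 h and 3.85 ± 0.14 at 44 h (interaction 3.08 ± 0.19). Edg78E, a pupal cuticle gene that depends on ecdysone, passed at 44 h and not at 24 h (-0.25 ± 0.14 and -2.30 ± 0.26), and at both without E93RNAi+brRNAi 24 h replicate 1.

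**Figure D3:**
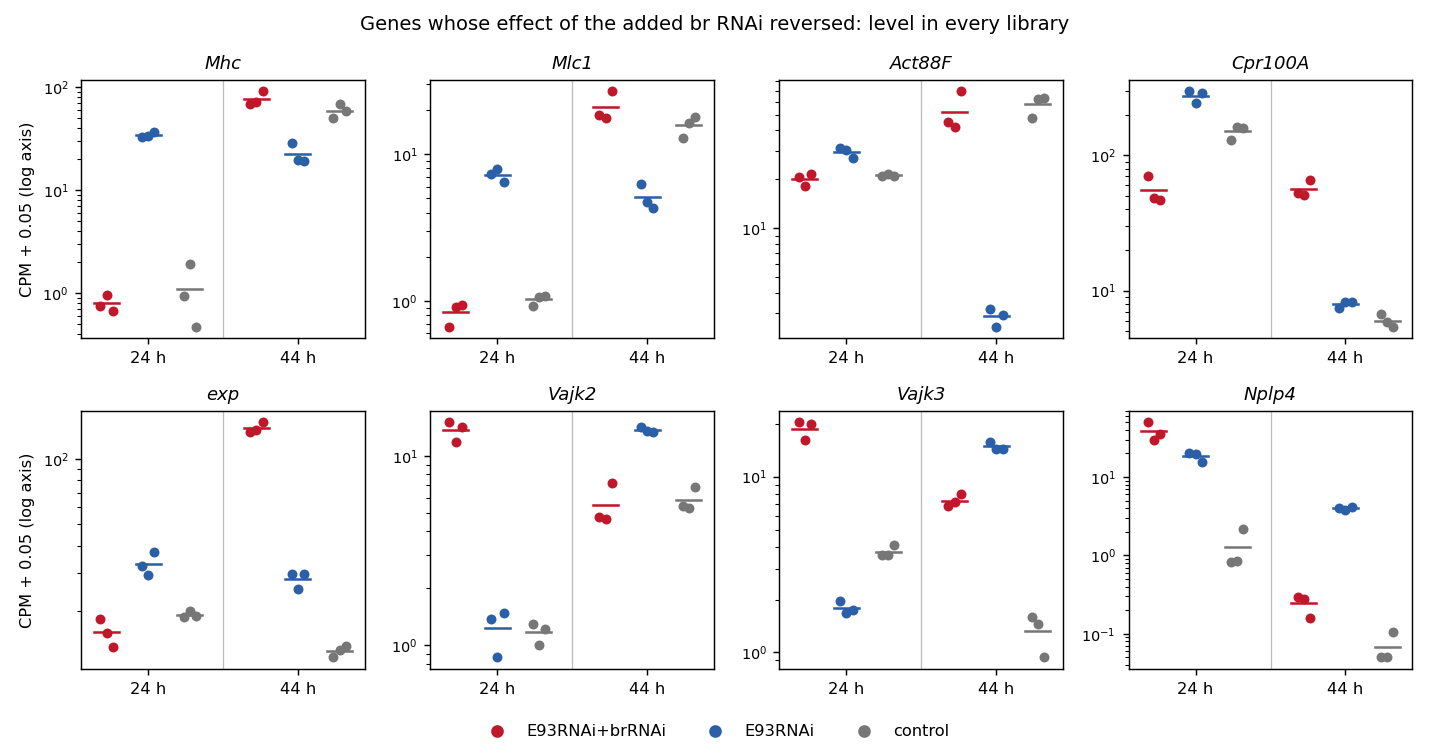
Level (CPM + 0.05, log axis) of 8 reversed genes in E93RNAi+brRNAi, E93RNAi and control wings at 24 h and at 44 h, with a dot for each library and a bar for each mean. E93RNAi+brRNAi lies below E93RNAi at 24 h and above it at 44 h for Mhc, Mlc1, Act88F, Cpr100A and exp, and the opposite holds for Vajk2, Vajk3 and Nplp4.

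Osiris genes encode membrane proteins of cells that build cuticle. Osi9 averaged 105 ± 15.8 CPM in E93RNAi+brRNAi wings and 11.9 ± 0.166 CPM in E93RNAi wings at 24 h, and its 44 h means were 14316 ± 1566 CPM and 4694 ± 724 CPM. It was higher at both times, with the larger fold at 24 h (3.14 ± 0.12 and 1.61 ± 0.10), and so was Osi22 (3.58 ± 0.18 and 1.25 ± 0.13). Osi12 had the larger fold at 44 h (1.28 ± 0.19 and 2.81 ± 0.12), when it averaged 8839.7 ± 1821 CPM in E93RNAi+brRNAi, 1257 ± 188 CPM in E93RNAi and 129.5 ± 8.805 CPM in control wings. Osi2 was the reversed member, at 0.701, 0.426 and 0.491 CPM in E93RNAi+brRNAi wings at 24 h, against 2.01, 1.67 and 2.11 CPM in E93RNAi wings. It had 42.2, 42.6 and 62.8 CPM at 44 h, against 9.2999, 8.24 and 10.3 CPM. Of 18 members tested, 6 had a positive and 5 a negative interaction, against 17.5% and 16% of all genes. At 24 h 10 were higher and 2 lower (20.2% and 21.1% of all genes), and at 44 h 15 and 2 (24.9% and 23.9%).

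Zona pellucida proteins tie the apical membrane to the matrix above it. Of 13 such genes 1 had a positive and 7 a negative interaction, against 17.5% and 16% of all genes. The gene m (miniature) was at 145, 193 and 149 CPM in E93RNAi+brRNAi wings at 24 h, against 18.7, 15.96 and 19.2 CPM in E93RNAi wings. It stood at 4473, 4568 and 4344 CPM at 44 h, against 2468, 2574 and 2764 CPM. The genotypes were apart at both times, and the fold was larger at 24 h (3.18 ± 0.14 and 0.78 ± 0.12). The positive member, zye, averaged 19.2 ± 1.62 CPM in E93RNAi+brRNAi wings and 0.445 ± 0.236 CPM in E93RNAi wings at 44 h. Its effect at 24 h did not pass (-0.75 ± 0.34), though it did by DESeq2 and in a fit of the 12 libraries alone.

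Of 21 pigmentation and tanning genes 6 had a positive and 5 a negative interaction, against 17.5% and 16% of all genes. No called member changed direction. The black pigment gene y was at 8.202, 7.44 and 6.16 CPM in E93RNAi+brRNAi wings at 24 h, against 1.599, 1.92 and 2.57 CPM in E93RNAi wings. It was at 63.4, 49.9 and 77.8 CPM at 44 h, against 2.55, 1.92 and 0.922 CPM (interaction 3.29 ± 0.39, adjusted p = 1.65e-06). Of all 18 libraries, those 3 of E93RNAi+brRNAi at 44 h alone passed 10 CPM. The related yellow-h, and amd, which acts in cuticle hardening, passed at 44 h (2.72 ± 0.11 and 2.30 ± 0.12) and not at 24 h (-0.25 ± 0.16 and 0.09 ± 0.16). The ebony gene e, whose product favours light pigment, had the larger fold at 24 h (2.35 ± 0.12 and 0.66 ± 0.08).

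Genes of the hormone cascade differed one by one. EcR, the receptor gene, was at 339.7, 326 and 301 CPM in E93RNAi+brRNAi wings at 24 h, against 368, 347 and 405 CPM in E93RNAi wings. It was at 248, 288 and 258 CPM at 44 h, against 151, 140.3 and 169 CPM. The genotypes were apart narrowly at 24 h and widely at 44 h (-0.21 ± 0.07 and 0.79 ± 0.07, interaction 1.00 ± 0.10, adjusted p = 2.76e-07). Without replicate 3 of E93RNAi or of E93RNAi+brRNAi at 24 h the effect at 24 h, and with it the reversal, did not pass. Oatp74D, the gene of the importer that takes ecdysone into cells, reversed as well, with means of 101 ± 5.36 CPM in E93RNAi+brRNAi wings and 124 ± 5.34 CPM in E93RNAi wings at 24 h. By 44 h they stood at 40.2 ± 3.79 CPM and 17.5 ± 0.757 CPM.

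Eip78C, an ecdysone-induced nuclear receptor gene, reversed in the other sense. It was at 126, 149 and 158 CPM in E93RNAi+brRNAi wings at 24 h, against 76.4, 76.95 and 86.4 CPM in E93RNAi wings. It was at 669, 621 and 587 CPM at 44 h, against 795, 767 and 791 CPM. Libraries of the genotypes were apart at both times (0.85 ± 0.09 and -0.33 ± 0.08, interaction -1.18 ± 0.12). The gene averaged 39.3 ± 5.91 CPM at 24 h and 922 ± 21.7 CPM at 44 h in control wings.

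Hr3, a nuclear receptor gene of the same cascade, had its gap at 24 h. It was at 52.6, 86.1 and 46.9 CPM in E93RNAi+brRNAi wings, against 5.85, 6.29 and 6.57 CPM in E93RNAi wings. All libraries were high at 44 h, at 1385, 1214 and 986 CPM, against 1505, 1503 and 1421 CPM. The effect was 3.31 ± 0.19 at 24 h and -0.31 ± 0.14 at 44 h, where it did not pass (adjusted p = 0.0811) although the libraries did not overlap. Without E93RNAi+brRNAi 24 h replicate 2 or 44 h replicate 1 it passed at 44 h, which made the gene a reversed one. Control wings had 1.45 ± 0.345 CPM at 24 h and 2204 ± 121 CPM at 44 h.

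Eip74EF, an ETS factor gene of the early response to ecdysone, had its gap at 44 h. It was at 179.7, 169 and 175 CPM in E93RNAi+brRNAi wings at 24 h, against 164, 155 and 173 CPM in E93RNAi wings. Counts at 44 h came to 291, 279 and 356 CPM, against 144, 131 and 133 CPM. The genotypes overlapped at 24 h and were far apart at 44 h (interaction 1.10 ± 0.10, adjusted p = 3.15e-08). With both outlying libraries left out the effect at 24 h passed too. ftz-f1, a nuclear receptor gene of the phase in which the hormone falls, averaged 1.85 ± 0.491 CPM in E93RNAi+brRNAi wings and 0.848 ± 0.203 CPM in E93RNAi wings at 44 h, with no effect past the threshold at 24 h (-0.18 ± 0.11). The ecdysone-induced gene ImpE2 reversed (0.17 ± 0.05 and -0.74 ± 0.05, interaction -0.91 ± 0.07), but not without E93RNAi+brRNAi 24 h replicate 3.

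Of 14 nuclear receptor genes 5 had a positive and 5 a negative interaction, against 17.5% and 16% of all genes. The 5 positive calls came to 2 without E93RNAi 44 h replicate 2 or without both outlying libraries, and to 3 without replicate 3 of E93RNAi+brRNAi at 24 h or at 44 h. Of 17 other ecdysone response and temporal identity genes 4 were positive and 6 negative, with the RNAi target Eip93F among the 6. The 4 came to 2 in a fit of the 12 libraries alone. Of 9 genes of ecdysteroid synthesis, uptake and breakdown, 6 were positive and 1 negative. Of the 13 genes listed, 10 were matched by symbol and 9 of these tested. Oatp74D, Cyp18a1, spok and dib were lower at 24 h and higher at 44 h. Cyp18a1, whose product inactivates the hormone, averaged 8.47 ± 1.19 CPM in E93RNAi+brRNAi wings and 20.3 ± 0.966 CPM in E93RNAi wings at 24 h, with 77.5 ± 4.298 CPM and 60.6 ± 4.65 CPM at the later time. The negative member shd, which makes the active hormone, passed at 24 h (0.70 ± 0.10) and not at 44 h (-0.24 ± 0.10). It passed at 44 h as well, as a reversed gene, without control 24 h replicate 2 or E93RNAi+brRNAi 44 h replicate 2.

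spok, an ecdysone synthesis gene of the prothoracic gland, was at 0.0824, 0.379 and 0.134 CPM in E93RNAi+brRNAi wings at 24 h, against 0.731, 0.556 and 0.735 CPM in E93RNAi wings. It was at 7.58, 5.08 and 7.96 CPM at 44 h, against 1.66, 0.609 and 0.807 CPM (interaction 4.54 ± 0.73, adjusted p = 6.24e-05). The libraries did not overlap. Yet the effect at 24 h was lost without replicate 1 or 3 of E93RNAi+brRNAi or of E93RNAi at 24 h. That effect rests on 13 counts over the E93RNAi+brRNAi libraries and 45 over the E93RNAi libraries. Control wings had 12.2 ± 4.44 CPM at 24 h, above both RNAi genotypes. At 44 h they had 4.15 ± 0.404 CPM, between the RNAi genotypes. phtm, of the same pathway but not among the 9 counted, lies beside Cyp18a1 on chromosome X and passed at 44 h (1.52 ± 0.22) and not at 24 h (0.17 ± 0.13).

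**Figure D4:**
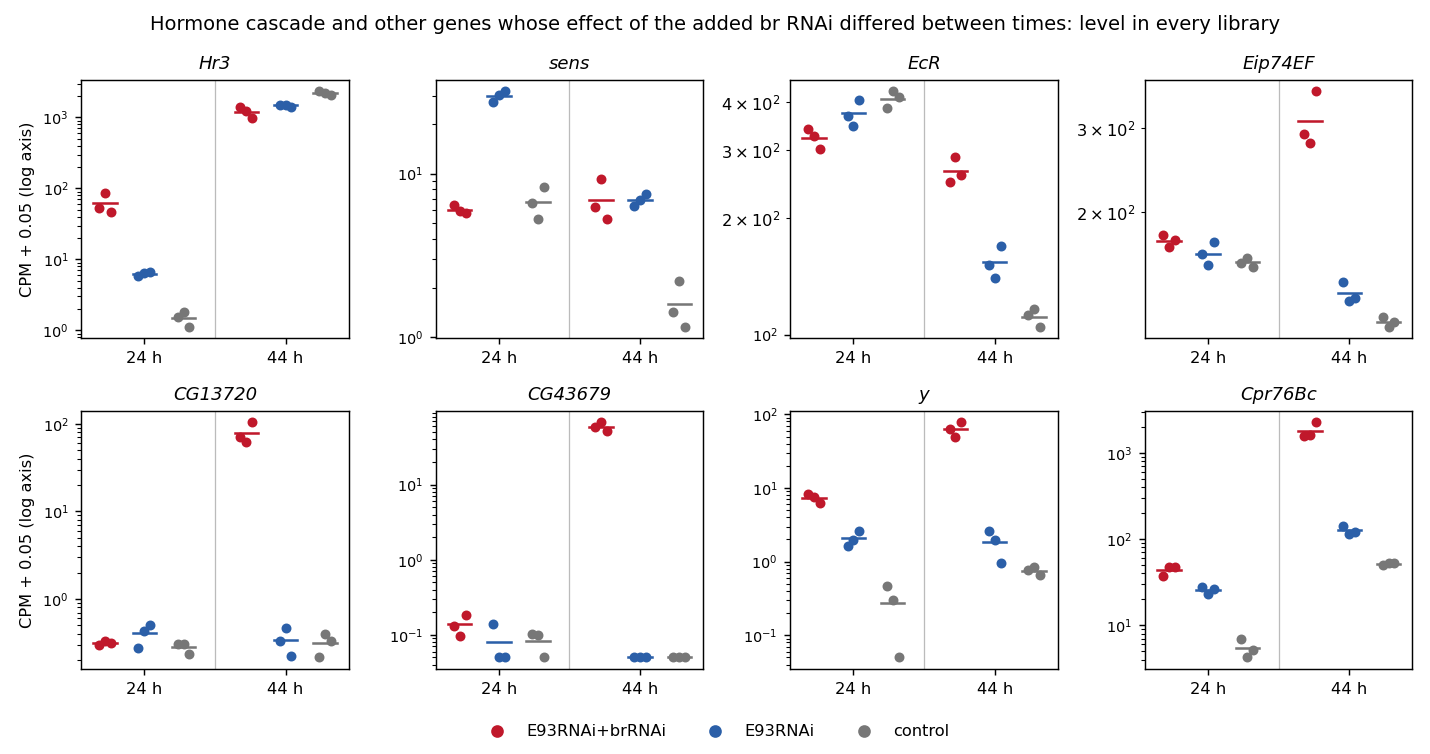
Level (CPM + 0.05, log axis) of 8 interaction genes in E93RNAi+brRNAi, E93RNAi and control wings at 24 h and at 44 h, with a dot for each library and a bar for each mean. Hr3 and sens part the RNAi genotypes mainly at 24 h, Eip74EF, CG13720, CG43679, y and Cpr76Bc mainly at 44 h, and EcR changes order.

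sens, a zinc finger gene of sensory organ precursors, was at 6.35, 5.87 and 5.67 CPM in E93RNAi+brRNAi wings at 24 h, against 27.4, 30.3 and 31.8 CPM in E93RNAi wings. It was at 6.23, 9.18 and 5.23 CPM at 44 h, against 6.31, 6.83 and 7.43 CPM. The gap at 24 h had no counterpart at 44 h, where libraries overlapped (interaction 2.33 ± 0.24, adjusted p = 2.76e-07). Control wings at 24 h averaged 6.69 ± 1.49 CPM, near the E93RNAi+brRNAi wings.

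The proneural genes sc and ac lie close together on chromosome X. sc was at 27.8, 30.7 and 27.7 CPM in E93RNAi+brRNAi wings at 24 h, against 32.7, 27.98 and 28.5 CPM in E93RNAi wings. It was at 2.65, 2.89 and 2.895 CPM at 44 h, against 8.08, 8.38 and 8.76 CPM. The genotypes overlapped at 24 h and were apart at 44 h (interaction -1.53 ± 0.16). ac was lower at 44 h too, and slightly higher at 24 h (0.29 ± 0.09 and -1.49 ± 0.18), a rise that was lost without E93RNAi 24 h replicate 3 or E93RNAi+brRNAi 24 h replicate 1. Of 23 sensory organ genes 1 (sens) had a positive and 10 a negative interaction, or 6 negative without E93RNAi 44 h replicate 3, and 12 did not pass. Over all genes 17.5% were positive and 16% negative.

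Of 14 E(spl) and Bearded genes, which Notch switches on, 0 had a positive and 7 a negative interaction in edgeR's test, against 17.5% and 16% of all genes, and 7 did not pass. The count of positive ones was 0 at an unadjusted p under 0.05 and by DESeq2 as well. Tom, of the Bearded family, reversed (0.25 ± 0.06 and -0.66 ± 0.07), with means of 24.4 ± 1.25 CPM in E93RNAi+brRNAi wings and 38.6 ± 1.83 CPM in E93RNAi wings at 44 h. E(spl)mbeta-HLH passed at 24 h (0.54 ± 0.05) and not at 44 h (-0.05 ± 0.05). E(spl)m6-BFM passed at 44 h (-1.47 ± 0.27) and not at 24 h (0.23 ± 0.14). E(spl)m8-HLH, below 0.5 CPM in both genotypes at 44 h, had an interaction of -1.90 ± 0.61 that was lost without E93RNAi 44 h replicate 1 and without replicate 1 or 2 of E93RNAi+brRNAi at 44 h.

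Of 33 wing selector and patterning genes 3 were positive and 13 negative, against 17.5% and 16% of all genes, and 17 did not pass. The 13 came to 7 without E93RNAi 44 h replicate 1 and to 8 without E93RNAi+brRNAi 24 h replicate 3 or 44 h replicate 2. The signal gene hh was at 72.2, 68.8 and 70.7 CPM in E93RNAi+brRNAi wings at 44 h, against 97.6, 97.1 and 102 CPM in E93RNAi wings, with overlap at 24 h (interaction -0.47 ± 0.07). The signal gene Wnt4 passed at 24 h (0.45 ± 0.05) and not at 44 h (0.04 ± 0.05). Of 29 vein and intervein genes 6 were positive and 10 negative, and 13 did not pass. The transcription factor gene mirr passed at 44 h (-0.74 ± 0.09), and net, which represses veins, was lower at both times and by more at 44 h (-0.53 ± 0.06 and -1.23 ± 0.09).

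Among 59 cell cycle genes, 9 had a positive and 13 a negative interaction, against 17.5% and 16% of all genes. At 24 h 41 were lower and at 44 h 34, against 21.1% and 23.9% of all genes. stg, the phosphatase gene that times entry into mitosis, was at 871, 892 and 895 CPM in E93RNAi+brRNAi wings at 24 h, against 763, 761 and 829.7 CPM in E93RNAi wings. It was at 147, 131 and 123 CPM at 44 h, against 327, 343 and 315 CPM. The genotypes were apart by little at 24 h and by more than 2-fold at 44 h (0.18 ± 0.05 and -1.30 ± 0.06, interaction -1.47 ± 0.08). The rise at 24 h was lost without replicate 1 or 2 of E93RNAi, or replicate 2 or 3 of E93RNAi+brRNAi, at 24 h.

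The JAK/STAT ligand gene upd1 and the pathway inhibitor gene Socs36E reversed in opposite senses. upd1 was at 68.7, 78.3 and 78.03 CPM in E93RNAi+brRNAi wings at 24 h, against 51.6, 51.3 and 54.04 CPM in E93RNAi wings. It was at 28.2, 27.8 and 26.1 CPM at 44 h, against 45.6, 45.2 and 46.3 CPM, with no overlap at either time (interaction -1.26 ± 0.08). Socs36E was lower at 24 h and higher at 44 h (-0.33 ± 0.05 and 0.30 ± 0.05). Both are in a list of 29 cell death and JNK genes, of which 9 were positive and 10 negative. The 10 came to 6 without E93RNAi 24 h replicate 3. Over all genes 17.5% were positive and 16% negative. The stress gene Gadd45 averaged 63.8 ± 12.2 CPM in E93RNAi+brRNAi wings and 15.9 ± 1.83 CPM in E93RNAi wings at 44 h, and did not pass at 24 h (0.21 ± 0.13).

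Wing hairs are built on actin bundles, and sha acts in their formation. It was at 156, 209 and 159 CPM in E93RNAi+brRNAi wings at 24 h, against 51.2, 48.9 and 56.2 CPM in E93RNAi wings. It was at 2407, 2302 and 1912 CPM at 44 h, against 2133, 2133 and 2198 CPM. The genotypes were apart at 24 h and overlapped at 44 h (interaction -1.71 ± 0.13, adjusted p = 3.87e-09). Of 27 hair and bristle actin genes 8 had a positive and 4 a negative interaction, against 17.5% and 16% of all genes.

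Of 29 basement membrane and integrin genes 14 had a positive and 5 a negative interaction, against 17.5% and 16% of all genes. Ilk, the integrin-linked kinase gene, was at 173, 181 and 181 CPM in E93RNAi+brRNAi wings at 44 h, against 109, 117 and 113 CPM in E93RNAi wings, and the 24 h libraries overlapped (interaction 0.61 ± 0.06). The laminin gene LanA was lower at both times and by more at 24 h (-2.30 ± 0.09 and -1.73 ± 0.09). The protease gene Mmp2, whose product cuts matrix, reversed by small amounts (0.28 ± 0.06 and -0.27 ± 0.06).

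Some genes that passed at 44 h alone were near 0 everywhere but in E93RNAi+brRNAi wings at that time. CG13720 was at 0.247, 0.284 and 0.268 CPM in E93RNAi+brRNAi wings at 24 h, against 0.228, 0.385 and 0.4595 CPM in E93RNAi wings. It was at 70.2, 61.8 and 104 CPM at 44 h, against 0.277, 0.421 and 0.173 CPM (interaction 8.43 ± 0.87, adjusted p = 2.37e-07). Control wings averaged 0.233 ± 0.03904 CPM at 24 h and 0.264 ± 0.0927 CPM at 44 h, so every library outside E93RNAi+brRNAi at 44 h lay below 0.5 CPM.

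CG12310 and CG43679 are neighbours on chromosome 3L, between 15050263 and 15051425. CG43679 was at 58.3, 67.6 and 52.1 CPM in E93RNAi+brRNAi wings at 44 h, against 0 counts in E93RNAi wings, which is at least 1120-fold higher than 3 counts over the group. CG12310 was at 8.75, 13.9 and 10.1 CPM, against 0 counts (at least 206-fold higher). PH4alphaSG2, of the prolyl hydroxylase family, was at 7.83, 13.2 and 6.79 CPM, against 0 counts (at least 176-fold higher). These 3 genes had 7 or fewer counts over the libraries of each RNAi genotype at 24 h. Without E93RNAi 24 h replicate 1 the interaction of CG43679 did not pass.

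The odorant binding protein gene Obp73a was at 118, 104 and 191 CPM in E93RNAi+brRNAi wings at 44 h, against 0.498, 0.468 and 0.576 CPM in E93RNAi wings. It was below 0.2 CPM in all 24 h libraries of both genotypes, and its interaction was lost without E93RNAi 24 h replicate 2. CG13159 was at 55.5, 84.02 and 53.6 CPM at 44 h, against 0.166, 0.0936 and 0 CPM, and CG8708 at 42.05, 65.7 and 37.9 CPM, against 2 counts over the E93RNAi libraries. CG13159 passed also at 24 h, as a reversed gene, by DESeq2 and without E93RNAi+brRNAi 44 h replicate 2.

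Genes far higher in E93RNAi than in E93RNAi+brRNAi wings at 44 h formed the negative counterpart. Nplp3, a neuropeptide-like precursor gene, was at 0.925, 0.751 and 1.11 CPM in E93RNAi+brRNAi wings at 44 h, against 30.3, 16.99 and 15.4 CPM in E93RNAi wings, and below 1 CPM in all 24 h libraries of both. The related Nplp4 reversed and was at 49.7, 29.8 and 35.1 CPM in E93RNAi+brRNAi wings at 24 h, against 20.3, 19.5 and 15.5 CPM in E93RNAi wings. It was at 0.247, 0.231 and 0.111 CPM at 44 h, against 3.93, 3.79 and 4.09 CPM. The genotypes were apart at both times (1.05 ± 0.16 and -4.30 ± 0.51). CG7203 was at 0.185, 0.404 and 0.334 CPM at 44 h, against 22.9, 11.6 and 8.93 CPM in E93RNAi wings. Its opposite effect at 24 h (1.86 ± 0.70) was lost without any 1 of the 3 E93RNAi libraries or without replicate 2 or 3 of E93RNAi+brRNAi at 24 h.

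A run of sugar receptor genes reversed together. Gr64a was at 0.907, 0.616 and 0.313 CPM in E93RNAi+brRNAi wings at 24 h, against 2 counts over the E93RNAi libraries. It was at 0.0617, 0.289 and 0.278 CPM at 44 h, against 6.03, 5.805 and 6.97 CPM. Gr64b averaged 0.525 ± 0.0987 CPM in E93RNAi+brRNAi wings and 4.96 ± 0.261 CPM in E93RNAi wings at 44 h, and Gr64f averaged 1.56 ± 0.322 CPM and 4.92 ± 0.626 CPM. With CG11594 they lie between 4022700 and 4037575 on chromosome 3L, and all 4 were higher at 24 h and lower at 44 h. Genes this close may share reads, and whether strand was used in the counting is not stated in the labels or headers. Levels at 24 h were low. Gr64b averaged 0.631 CPM in E93RNAi+brRNAi and 0.12 CPM in E93RNAi wings at that time. The 24 h means in the same order were 0.809 and 0.281 CPM for Gr64f, and 1.13 and 0.192 CPM for CG11594.

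The small heat shock genes between 9377802 and 9385694 on chromosome 3L respond to ecdysone. Hsp27 was at 3170.0, 3048 and 3181 CPM in E93RNAi+brRNAi wings at 24 h, against 2592, 2525 and 2358 CPM in E93RNAi wings. It was at 931, 871 and 863 CPM at 44 h, against 1515, 1581 and 1458 CPM. No libraries overlapped and the order changed (0.33 ± 0.05 and -0.77 ± 0.05). Hsp67Ba reversed in the same sense (0.30 ± 0.05 and -1.11 ± 0.06). Hsp23 was lower at 44 h (-1.17 ± 0.07) and did not pass at 24 h (-0.15 ± 0.07), where it passed without E93RNAi 24 h replicate 3 or E93RNAi+brRNAi 44 h replicate 3, by DESeq2 and with no filter on low counts. Of 14 heat shock and chaperone genes 5 had a positive and 6 a negative interaction, against 17.5% and 16% of all genes. The 5 came to 3 in a fit of the 12 libraries alone.

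Cyp4g1, the P450 gene of hydrocarbon synthesis, had its gap at 24 h. It was at 12.9, 7.06 and 4.96 CPM in E93RNAi+brRNAi wings, against 0.228, 0.513 and 0.2298 CPM in E93RNAi wings. It was at 2.59, 2.89 and 2.39 CPM at 44 h, against 1.83, 2.01 and 2.996 CPM, with overlap (interaction -4.43 ± 0.60). CG46025 averaged 5.41 ± 0.738 CPM in E93RNAi+brRNAi wings and 0.0895 ± 0.0457 CPM in E93RNAi wings at 24 h, and passed at 44 h too without E93RNAi 44 h replicate 1 or E93RNAi+brRNAi 44 h replicate 3. C901 was higher at both times and by more at 24 h (4.88 ± 0.40 and 0.76 ± 0.11). CG15021 had this pattern as well, at 5.52, 3.46 and 3.26 CPM in E93RNAi+brRNAi wings at 24 h, against 1 count over the E93RNAi libraries, and at 11.3, 14.3 and 13.6 CPM at 44 h, against 4.87, 5.01 and 6.395 CPM.

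The adjacent P450 genes Cyp4p1 and Cyp4p2 were close to 0 in E93RNAi wings at both times. Cyp4p1 was at 36.3, 38.1 and 42.4 CPM in E93RNAi+brRNAi wings at 24 h, against 0.0457, 0.0428 and 0.184 CPM in E93RNAi wings. It was at 21.9, 27.5 and 22.8 CPM at 44 h, against 0.221, 0.234 and 0.461 CPM (interaction -2.37 ± 0.62, adjusted p = 0.00555). The genotypes were far apart at both times. Control wings had 55.7 ± 1.58 CPM of Cyp4p1 at 24 h and 38.4 ± 0.276 CPM at 44 h. For Cyp4p2 control wings had 129 ± 4.27 and 96.97 ± 8.37 CPM. For both genes control was closer to E93RNAi+brRNAi than to E93RNAi wings. Over the E93RNAi libraries there were 6 counts of Cyp4p1 at 24 h and 17 at 44 h, and 8 and 21 of Cyp4p2. For Cyp4p2 the interaction (-1.79 ± 0.65) was lost without E93RNAi 24 h replicate 1 or 2, E93RNAi 44 h replicate 1 or 3, or E93RNAi+brRNAi 24 h replicate 3. Of 61 P450 genes 13 were positive and 11 negative, or 7 negative without E93RNAi 24 h replicate 1, and these shares are near the 17.5% and 16% of all genes.

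Of 72 nuclear respiratory chain genes 2 had a positive and 26 a negative interaction (17.5% and 16% of all genes), with a median of -0.24. At 24 h 52 members were higher and 1 lower (20.2% and 21.1% of all genes). At 44 h 8 were higher and 4 lower (24.9% and 23.9%). ATPsynF was at 107, 102 and 119 CPM in E93RNAi+brRNAi wings at 24 h, against 79.4, 82.04 and 66.5 CPM in E93RNAi wings. The lowest of these was E93RNAi replicate 3, the library with the low ribosomal protein share. At 44 h the genotypes overlapped (interaction -0.60 ± 0.11), and COX6B had a like pattern (0.35 ± 0.06 and -0.05 ± 0.06). The 26 came to 16 without that library or without E93RNAi 44 h replicate 1, and to 14 without E93RNAi+brRNAi 24 h replicate 3 or 44 h replicate 2. Of 28 secretory pathway genes 2 were positive and 13 negative, or 7 and 8 negative without the same libraries of E93RNAi+brRNAi. The coat gene Sec23 had an effect of 0.22 ± 0.04 at 24 h and -0.05 ± 0.04 at 44 h. Of 17 vacuolar ATPase subunit genes 9 were positive and 1 negative. At 24 h 5 were higher and 2 lower (20.2% and 21.1% of all genes), and at 44 h 12 were higher (24.9%). Vha55 was at 241, 245 and 262 CPM in E93RNAi+brRNAi wings at 44 h, against 193, 189 and 192 CPM in E93RNAi wings.

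**Figure D5:**
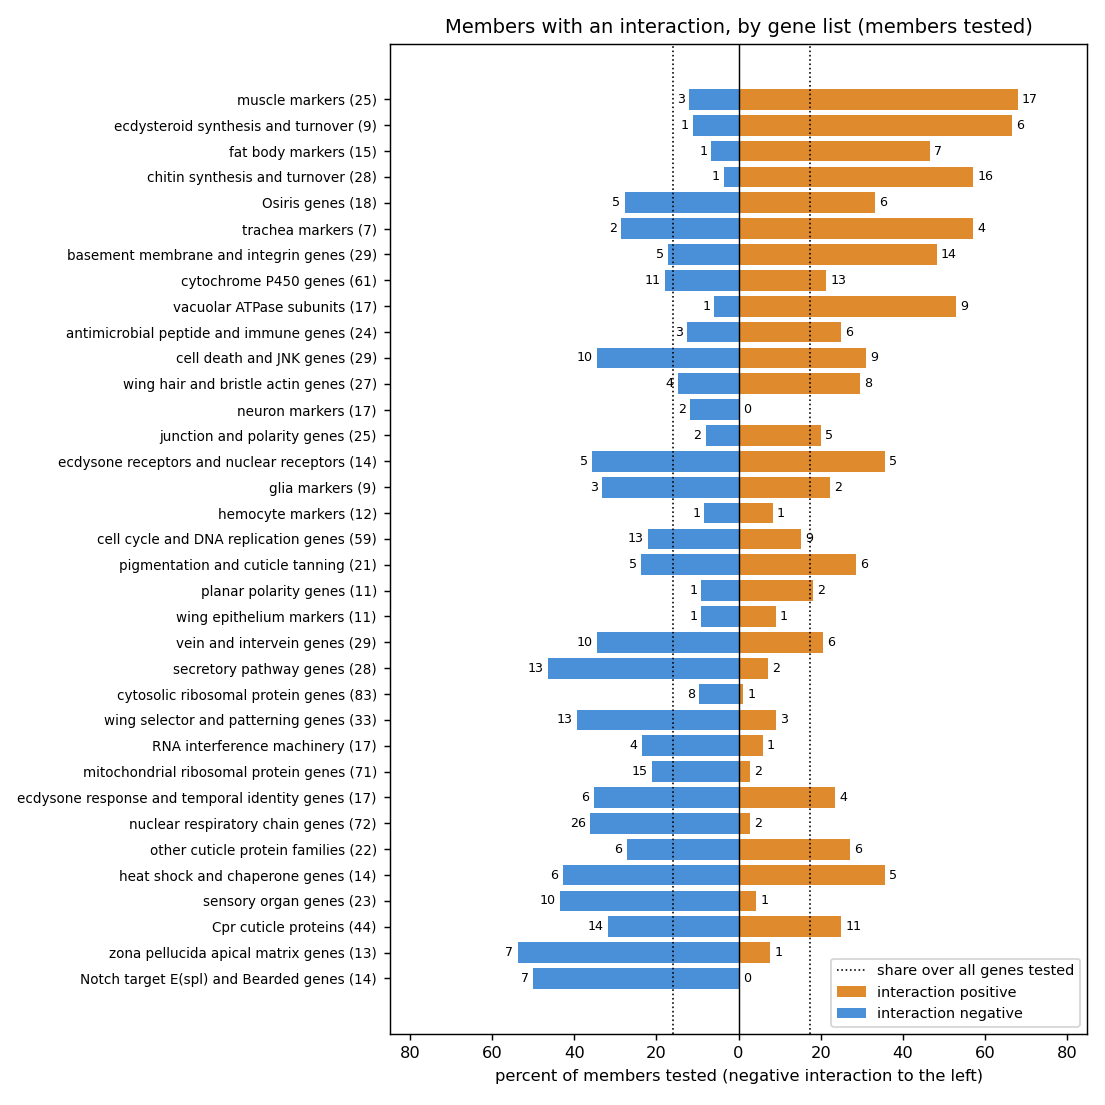
Share of the tested members of each gene list with a positive (right) or negative (left) interaction, with the shares of all genes tested as dotted lines (17.5% and 16%). The muscle markers have 17 of 25 members to the right, and the E(spl) and Bearded genes have 0 of 14 to the right and 7 to the left.

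Fat body markers, which tissue clinging to a wing could supply, were positive for 7 of 15 and negative for 1, against 17.5% and 16% of all genes. The storage protein gene Lsp2 was at 188, 185 and 183 CPM in E93RNAi+brRNAi wings at 24 h, against 267, 238 and 261 CPM in E93RNAi wings. It was at 152, 140.2 and 135 CPM at 44 h, against 89.7, 85.998 and 77.2 CPM. It reversed with no overlap (interaction 1.22 ± 0.12). Lsp1gamma, another storage protein gene, was lower at 24 h (-0.62 ± 0.08) and did not pass at 44 h (0.15 ± 0.08). The summed level of the list was 735 to 772 CPM in E93RNAi+brRNAi wings and 909 to 943 CPM in E93RNAi wings at 24 h, and 799.9 to 845 CPM and 668 to 711 CPM at 44 h. None of its members was at 0 in all 12 libraries. The part of such tissue in other results was not tested.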

How the data were processed

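Pupal wing poly(A) RNA was sequenced in 18 libraries, with a directional kit per the labels' protocols. The authors deposited raw read counts per gene beside RPKM values, on build dm6 per the submitters' processing notes. For aligner, counter and strand setting, the sources used here are silent. The RPKM values as deposited were read only as a check. Of 14489 genes listed, 758 had no values, and filterByExpr kept 9672. Counts were scaled by TMM and fitted with 1 mean per group over all 18 libraries in edgeR 4.0.16 (R 4.3.3, quasi-likelihood F test, Benjamini-Hochberg over all genes tested), and the interaction was a contrast of 4 group means. A gene was called at an adjusted p under 0.05. Coordinates are from Ensembl 115 (BDGP6). With 3 libraries per group, precision is set by their spread, and a group at 0 counts was given a floor of 3 counts over the group.

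Genes were named by rule: Eip93F, br, rn and Dcr-2, and up to 3 members of each list. The rule also named the 8 largest interactions each way and the leading genes of each class. Both of these kinds were taken among called genes with a symbol and at least 5 CPM in the highest group of the contrast. Their libraries also had no overlap at each time where the effect passed. Outside this rule, up, Tm2, Mlc2, bt, Mp20, kkv, Cht6, Cht10, Ldh, spok, dib, phtm, ftz-f1, Osi12, Gr64b, Gr64f, CG11594, Cyp4p1, Cyp4p2 and LanA were chosen after their values were seen. List members were matched by symbol, and unmatched ones were not counted. The members and lists were chosen with earlier results of these data known. The alternatives were DESeq2 1.42.0 (its test and its size factors), other filters, the 12 libraries alone, a replicate block, each library left out, and, added after the data were seen, both outlying libraries left out.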

Additional observations from a re-analysis of the deposited data

Results flagged for a closer look

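For the 99 named genes below, the effect of the added br RNAi differed between the times by the test of the interaction itself (edgeR's quasi-likelihood test, adjusted p under 0.05). The value after each gene is the effect at 44 h minus that at 24 h on the log2 scale. They were named with their size in view, so their number says nothing of how common such differences are.

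Lower in E93RNAi+brRNAi than in E93RNAi wings at 24 h and higher at 44 h were Mhc (7.31), Mlc1 (5.24), Mlp60A (5.74), Act88F (4.76), up (4.25), Tm2 (4.31), Gcat (5.64), Cpr100A (5.15), jp (3.97), Osi2 (4.22), exp (3.35), knk (1.33), Cht7 (2.07), EcR (1.00), Oatp74D (1.50), Cyp18a1 (1.62), TwdlT (2.91), kkv (0.50), Ldh (4.97), spok (4.54), bt (2.38), Mlc2 (2.76), Lsp2 (1.22), Socs36E (0.62) and CG8620 (9.31). Higher at 24 h and lower at 44 h were Eip93F (-0.61), Vajk2 (-4.84), Vajk3 (-4.45), Nplp4 (-5.35), Gr64a (-8.95), Gr64b (-5.58), Gr64f (-3.16), CG11594 (-5.24), CG7203 (-7.37), Cpr72Eb (-2.27), Eip78C (-1.18), Hsp67Ba (-1.41), Hsp27 (-1.10), stg (-1.47), ac (-1.79), ImpE2 (-0.91), Mp20 (-5.52), Mmp2 (-0.55), Tom (-0.91) and upd1 (-1.26). With an effect past the threshold at 44 h and not at 24 h, the positive differences were those of CG43679 (11.82), CG13159 (12.56), CG12310 (11.95), CG13720 (8.43), CG8708 (9.26), Obp73a (7.83), PH4alphaSG2 (9.81), zye (6.17), yellow-h (2.97), amd (2.21), Eip74EF (1.10), ftz-f1 (1.28), Gadd45 (1.79), verm (0.88), serp (0.93), Cht6 (1.86), Ilk (0.61), Vha55 (0.47) and phtm (1.35). The negative ones of this kind were those of Hsp23 (-1.02), E(spl)m8-HLH (-1.90), E(spl)m6-BFM (-1.71), sc (-1.53), Nplp3 (-4.51), Edg78E (-2.06), hh (-0.47) and mirr (-0.75). With an effect past the threshold at 24 h and not at 44 h, the positive differences were those of sens (2.33) and Lsp1gamma (0.78). On the negative side were Hr3 (-3.61), sha (-1.71), Cyp4g1 (-4.43), CG46025 (-5.11), Sec23 (-0.27), ATPsynF (-0.60), COX6B (-0.39), Wnt4 (-0.42), E(spl)mbeta-HLH (-0.59) and shd (-0.94). Same in direction at both times and larger at 44 h, with a positive difference, were y (3.29), Cpr76Bc (3.08), Osi12 (1.54) and Gasp (1.16). With a negative difference there were net (-0.70) and Cht10 (-0.44). Larger at 24 h and positive was LanA (0.57). Larger at 24 h and negative were C901 (-4.12), CG15021 (-6.33), m (-2.40), e (-1.69), Osi9 (-1.53), Osi22 (-2.33), Cyp4p1 (-2.37) and Cyp4p2 (-1.79). Gr64a, CG43679, CG13159, CG12310, CG8708, PH4alphaSG2, CG15021, Mp20 and CG8620 had 3 or fewer counts over at least 1 of the 4 groups, so that the fitted size of their differences depends on the prior count and is no bound.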

How the results depend on the processing

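The count of 3240 interaction genes was 3165 with DESeq2 size factors, 3198 by DESeq2's own test, 2983 without a filter on low counts, 3202 with at least 1 CPM in 3 libraries, 2828 with the 12 libraries alone, 3216 without both outlying libraries, and 2780 to 3294 with each library left out in turn. The 543 reversed genes were 549, 551, 521, 540, 456 and 512 in the same settings, and 414 to 581 with a library left out, fewest without E93RNAi+brRNAi 24 h replicate 3. No gene called an interaction changed sign among those called in any of the 25 alternatives, and 2697 to 3173 of the 3240 calls were kept. The share of positive calls ran from 51.8% to 59.9%, against 52.2%, highest without the filter. All counts of genes over the whole table stayed within 1.5 times of those reported, except the 118 interaction genes that passed at neither time, which were 78 without E93RNAi+brRNAi 24 h replicate 3 (78 to 128 over all libraries left out), and the cause was not tested. Of 102 named genes 96 kept their direction and their side of the threshold in each alternative that tested them, which for Mp20 was 23 of the 25. The exceptions were CG43679, Obp73a, Cyp4p2, E(spl)m8-HLH and rn, given with their results, and Dcr-2, whose interaction, not called in any setting, ran from -0.191 to 0.07255 with a library left out, and was positive without E93RNAi 44 h replicate 1 (0.07255) and without E93RNAi+brRNAi 44 h replicate 3 (0.03629).

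Replicate numbers were not taken to pair the samples. Deviations of same-numbered libraries correlated at -0.183 to 0.0881 over 18 pairs, and those of differently numbered ones at -0.0909 to 0.129 over 36 pairs. With the replicate number as a block the interaction count was 3071 and that of reversed genes 507, and Hr3, shd and CG13159 counted as reversed.

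The calls rest on 3 libraries per group, and genes under the filter were not tested. Counts over lists of small effects moved most. Of 83 cytosolic ribosomal protein genes 1 had a positive and 8 a negative interaction, against 17.5% and 16% of all genes. The 8 were 0 to 25 with a library left out, and 26 without both outlying libraries.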

Other observations

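Markers of other cell types were given by their lists. Over all genes tested, 17.5% had a positive and 16% a negative interaction. Of 17 neuron markers 0 had a positive and 2 a negative interaction in edgeR's test (0 positive at an unadjusted p under 0.05), and the 2 were 0 without E93RNAi+brRNAi 24 h replicate 2. Of 12 hemocyte markers 1 was positive and 1 negative, and of 9 glia markers 2 and 3. Of 7 trachea markers 4 were positive, uif and the chitin genes verm, serp and Gasp. The 2 negative ones were trh and vvl. The summed level of the trachea list at 44 h was 5601 to 5912 CPM in E93RNAi+brRNAi wings and 3533 to 3962 CPM in E93RNAi wings. Of 11 wing epithelium markers 1 was positive and 1 negative, and without E93RNAi 24 h replicate 3 4 were negative.

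Of 24 antimicrobial peptide and immune genes 6 were positive and 3 negative, and 4 of these changed direction: spz, Dif and Rel, the Toll ligand gene and NF-kappaB factor genes, were lower at 24 h and higher at 44 h, and Tep2, a thioester protein gene, the opposite. Of 25 junction and polarity genes 5 were positive and 2 negative, of 11 planar polarity genes 2 and 1, and of 17 genes of the RNA interference machinery 1 and 4. Of 71 mitochondrial ribosomal protein genes 2 were positive and 15 negative, or 7 negative without E93RNAi 24 h replicate 3. Over all genes tested, 17.5% were positive and 16% negative. Interactions either way were called for 37.5% (immune), 28% (junction), 27.3% (planar polarity) and 29.4% (RNA interference) of members, against 33.5% of all genes.

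Tested neighbours with differences of at least 1 on the log2 scale and of one sign formed 11 runs of 3 or more genes, picked out after their values were seen. Beside the sugar receptor and small heat shock genes they included CG10588, CG12983, CG33287, CG33286 and CG12984 (negative, chromosome 3L, 20956934 to 20992930, BDGP6) and CG14627, CG14626, CG11380 and CG14625 (positive, chromosome X, 1181620 to 1203157). CG7203 and CG46025 lie in one run with CG7214 on chromosome 2L (7743682 to 7765915), and yellow-h lies between CG31999 and CG1674 on chromosome 4 (215009 to 245903).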
